A study of Mus musculus with 22 samples.

Results

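Olfactory and vomeronasal receptor genes in mouse fetal liver blood progenitors were examined as a set of gene starts that the cells do not use. The set was chosen by gene name, as every gene called Olfr (odorant receptors) or Vmn1r or Vmn2r (the 2 vomeronasal receptor families) followed by a number, with 1 window per gene at the transcript start that had the highest mean count. It held 1685 of the 52453 gene starts with a deposited window, of which 1355 were Olfr, 209 Vmn1r and 121 Vmn2r, and 241 of the 1685 were annotated as pseudogenes. The study compared Mettl3-deficient (KO) with wild-type (WT) embryos at embryonic stage E14.5. KO embryos were Vav-Cre Mettl3fl/fl, in which the Vav promoter drives Cre in blood-forming cells, and WT embryos were Mettl3fl/fl without Vav-Cre, so that both carried the floxed alleles. H3K4me3 was measured by CUT&RUN in 2 KO and 2 WT libraries of sorted Lin-Sca-1+c-Kit+ (LSK) cells, the fraction that holds blood stem and early progenitor cells, and polyA RNA of the same fraction was sequenced in bulk in 3 libraries of each genotype. The labels call the libraries of a group biological replicates, each from 1 mouse.

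Each mature olfactory neuron expresses 1 odorant receptor allele, and vomeronasal neurons express Vmn1r or Vmn2r receptors, while in other tissues nearly all of these genes are silent. H3K4me3, trimethylation of lysine 4 of histone H3, is laid down at the starts of active genes, and CUT&RUN releases DNA near the antibody-bound mark with a tethered nuclease. Counts over starts that carry no mark come from cutting away from the mark and give the background of an experiment. METTL3 carries the catalytic site of the methyltransferase that places N6-methyladenosine on RNA.

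Mettl3 had 4.13, 6.31 and 5.53 counts per 1000000 (CPM) in the bulk KO libraries, against 42.96, 43.0 and 33.16 CPM in the WT libraries, so the labels matched the targeted gene. Counts summed over 1 window per gene were 13836762 and 14451593 in the KO H3K4me3 libraries and 14346314 and 11508749 in the WT libraries. Between 67.4% and 75% of the receptor counts in a library were even numbers, where single reads would give 50%, and the share over all windows was 70.7% to 74.3%. Why even counts were in excess was not tested, and the counting error of a window may be larger than that of independent reads. LSK markers summed to 1866 to 2127 CPM in KO and 2247 to 2623 CPM in WT bulk libraries over 8 genes. These did not all go the same way. In edgeR's test Kit, Flt3, Hlf, Mecom and Meis1 were lower in KO (log2 fold changes -0.25 to -1.13), and Cd34 and Ptprc did not pass. Ly6a was higher, at a mean of 19.18 CPM in KO against 6.56 CPM in WT (log2 fold change 1.55, edgeR adjusted p = 0.001075). Of all genes tested, 22.6% were lower and 21.6% higher. The vomeronasal neuron markers Trpc2 and Gng8 had 0 counts in all 6 bulk libraries. In H3K4me3 the start of Gng8 had a mean of 18.88 CPM and that of Trpc2 2.62 CPM. Of the 6 olfactory neuron markers, Cnga2 and Stoml3 had 0 counts, while Ano2 had 3, Omp 95, Gnal 170 and Adcy3 1817 over the 6 libraries, and the list summed to 7.69 to 9.68 CPM in KO and 11.88 to 15.33 CPM in WT.

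Starts of 7 receptor genes are printed here because the results turn on them. Olfr339 had the median level of the whole set, Olfr432, Olfr460 and Olfr1226 were among the starts that stood above background, Olfr420 and Vmn1r137 were among those that were lower in KO, and Vmn1r219 was higher in KO. Each sequence runs from 250 bases before to 50 bases after the start annotated by RefSeq (GRCm38.p6), with CG dinucleotides in capitals.
Olfr339, chr2:36421150-36421449, plus strand: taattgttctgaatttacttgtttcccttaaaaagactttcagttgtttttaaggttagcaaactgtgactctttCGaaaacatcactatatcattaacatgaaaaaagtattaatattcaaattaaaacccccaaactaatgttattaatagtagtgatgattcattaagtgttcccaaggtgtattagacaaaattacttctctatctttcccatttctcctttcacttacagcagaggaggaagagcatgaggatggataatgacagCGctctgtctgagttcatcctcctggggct
Olfr432, chr1:174050125-174050424, plus strand: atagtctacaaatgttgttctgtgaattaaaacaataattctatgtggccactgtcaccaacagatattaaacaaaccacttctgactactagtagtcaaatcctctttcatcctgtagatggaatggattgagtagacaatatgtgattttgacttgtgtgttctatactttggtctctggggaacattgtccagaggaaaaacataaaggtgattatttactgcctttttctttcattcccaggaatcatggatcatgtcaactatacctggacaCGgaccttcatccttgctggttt
Olfr460, chr6:40571138-40571437, plus strand: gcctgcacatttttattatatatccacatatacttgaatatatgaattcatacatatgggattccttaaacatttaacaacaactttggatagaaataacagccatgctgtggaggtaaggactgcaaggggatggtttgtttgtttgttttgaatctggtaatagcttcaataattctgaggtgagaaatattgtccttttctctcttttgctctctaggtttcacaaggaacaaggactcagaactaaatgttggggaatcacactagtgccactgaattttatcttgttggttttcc
Olfr1226, chr2:89193983-89194282, minus strand: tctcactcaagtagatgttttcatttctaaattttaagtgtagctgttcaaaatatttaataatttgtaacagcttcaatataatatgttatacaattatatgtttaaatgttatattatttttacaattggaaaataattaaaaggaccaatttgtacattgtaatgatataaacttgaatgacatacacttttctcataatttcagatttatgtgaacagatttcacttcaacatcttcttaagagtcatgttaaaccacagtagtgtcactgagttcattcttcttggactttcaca
Olfr420, chr1:174158472-174158771, plus strand: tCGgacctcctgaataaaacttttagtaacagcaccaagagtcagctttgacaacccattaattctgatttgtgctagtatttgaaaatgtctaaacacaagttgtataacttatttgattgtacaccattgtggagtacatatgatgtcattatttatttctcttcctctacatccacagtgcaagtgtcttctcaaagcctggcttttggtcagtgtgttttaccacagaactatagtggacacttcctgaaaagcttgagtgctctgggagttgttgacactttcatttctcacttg
Vmn1r137, chr7:21994337-21994636, plus strand: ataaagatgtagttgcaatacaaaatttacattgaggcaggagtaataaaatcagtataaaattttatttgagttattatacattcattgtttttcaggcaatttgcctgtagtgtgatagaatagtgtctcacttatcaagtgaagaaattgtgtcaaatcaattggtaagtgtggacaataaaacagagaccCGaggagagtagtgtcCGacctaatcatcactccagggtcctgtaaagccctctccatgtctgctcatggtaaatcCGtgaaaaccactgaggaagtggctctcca
Vmn1r219, chr13:23162393-23162692, plus strand: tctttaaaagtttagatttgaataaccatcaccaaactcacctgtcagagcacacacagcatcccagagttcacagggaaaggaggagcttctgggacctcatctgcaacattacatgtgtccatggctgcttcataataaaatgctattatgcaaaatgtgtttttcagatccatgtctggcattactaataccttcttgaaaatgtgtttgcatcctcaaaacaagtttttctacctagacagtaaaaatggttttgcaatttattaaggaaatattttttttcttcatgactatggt
In Olfr339, Olfr432, Olfr460, Olfr1226 and Vmn1r137 the bases from the annotated start on open with atg, the start codon of translation. Whether these are starts of transcription was not tested, so their CG counts and those of promoters may come from unlike kinds of start. The 7 sequences held between 0 and 3 CG dinucleotides each. Over the 32851 promoters of that length in the RefSeq table, 94.6% held at least 1 CG (a motif that reads the same on both strands), and the median promoter held 7. The RefSeq start lay within 1500 bases of the deposited window's start for 870 of the 1685 receptors (51.6%), under the 80% needed, so a comparison of CG content across the whole set was void and none is given. For 6 of the 7 the start was the deposited one, and for Olfr460 it lay 31 bases away.

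H3K4me3 over receptor starts was low in all 4 libraries and lower in both KO libraries than in either WT library. The mean over all 1685 windows was 1.29 and 1.62 CPM in KO replicates 1 and 2, against 1.93 and 2.22 CPM in WT replicates 1 and 2 (CPM scaled by the trimmed mean of M-values, TMM). These levels correspond to a mean of 15.79 and 22.25 counts per window in KO and 27.93 and 29.99 counts in WT. The group means were 1.46 ± 0.233 CPM in KO and 2.07 ± 0.204 CPM in WT (SD, n = 2 each), a log2 difference of -0.52. The groups did not overlap, but the gap between the higher KO and the lower WT library, 0.25 on the log2 scale, was smaller than the gap of 0.33 between the 2 KO libraries and larger than the 0.20 between the WT libraries. An exact two-sided permutation test over the 2 against 2 libraries gave p = 0.333, the smallest that this design allows.

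The 3 receptor families lay in the same order of libraries. Olfr windows averaged 1.27 and 1.61 CPM in KO and 1.918 and 2.203 CPM in WT, a log2 difference of -0.53. Vmn1r windows averaged 1.56 and 1.79 CPM in KO and 2.11 and 2.36 CPM in WT, a log2 difference of -0.42, and Vmn2r windows averaged 1.06 and 1.46 CPM in KO and 1.75 and 2.12 CPM in WT, a log2 difference of -0.63. In all families KO replicate 1 was lowest and WT replicate 2 highest.

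**Figure D1:**
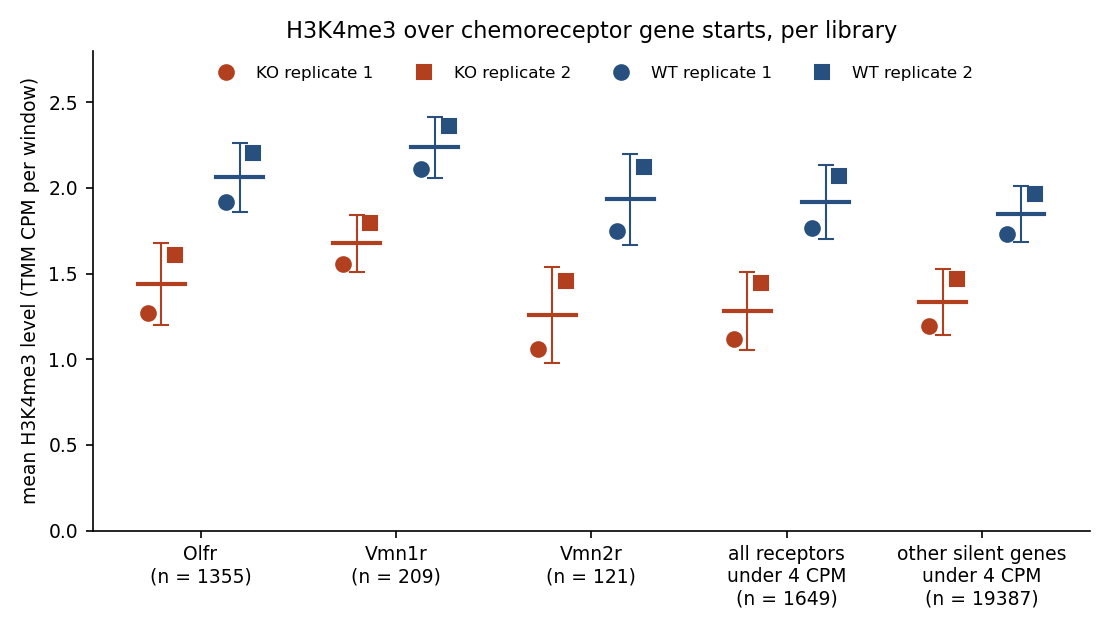
Mean H3K4me3 level per window (TMM CPM, vertical axis) for each receptor family, for all receptors under 4 CPM and for other genes without bulk RNA under 4 CPM. Points are libraries, KO in red and WT in blue, and bars are the group mean ± SD (n = 2 each). Both KO libraries lie below both WT libraries in all 5 sets.

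The same order was found over unmarked starts of genes outside the receptor families. Among the other genes with 0 bulk counts in all 6 libraries, 19387 had a window under 4 CPM, and these averaged 1.20 and 1.47 CPM in KO against 1.73 and 1.96 CPM in WT, a log2 difference of -0.48, next to 1.12 and 1.44 CPM in KO and 1.77 and 2.07 CPM in WT (-0.59) for the 1649 receptors under 4 CPM. Without the limit of 4 CPM, the 23188 other genes with 0 bulk counts, of which 16.4% lay at or above it, averaged 5.41 and 5.72 CPM in KO and 5.57 and 5.60 CPM in WT, and the groups overlapped, while their median was 1.14 and 1.46 CPM in KO against 1.80 and 2.07 CPM in WT. Marked starts were the 15916 windows of other genes with a mean of 16 CPM or more. With TMM scaling they went the other way, with a mean of 64.85 and 58.98 CPM in KO and 54.92 and 45.76 CPM in WT. The mean marked window was therefore 50.3 and 36.4 times the mean receptor window in the KO libraries, against 28.5 and 20.6 times in the WT libraries. The receptor windows held 0.192% and 0.259% of the summed counts in KO and 0.328% and 0.439% in WT. The ratio of marked to receptor windows was higher in both KO libraries than in either WT library. On a fold scale the KO libraries differed in this ratio by more than the gap between the groups, and so did the WT libraries. The part of this ratio in the lower receptor level was not tested.

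Between TMM, relative log expression and library size alone, the log2 difference depended on the scaling in size but not in direction. The log2 difference ranged from -0.77, with library size alone, to -0.40, with KO replicate 1 left out, over the 9 other settings tried. TMM put the median log2 fold change of all windows tested at -0.15, size factors from relative log expression at -0.04 and library size alone at -0.40, and the receptor median moved with it, at -0.58, -0.47 and -0.83 in that order. The median of the marked windows was 0.31, 0.43 and 0.07 in the same order, so their rise was small with library size alone. In edgeR's test that setting gave 1137 marked windows higher and 472 lower in KO, where TMM gave 903 higher and 55 lower. Scaling to the receptor windows themselves brings their median to -0.08 by construction and put the median of all windows at 0.35 and of the marked windows at 0.83.

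Individual receptor windows differed little from each other. The median window had a mean of 1.53 CPM over the 4 libraries, the middle 90% lay between 1.14 and 2.62 CPM, and the extremes were 0.596 and 69.95 CPM. The median was 1.52 CPM for Olfr, 1.60 CPM for Vmn1r and 1.49 CPM for Vmn2r. Among the 1627 autosomal windows under 4 CPM with no marked start of another gene within 10 kb, counts ranged from 3 to 46 and 6 to 71 in the KO libraries and from 8 to 70 and 7 to 75 in the WT libraries, so none was empty. The variance over windows was 1.80 and 2.14 times the mean count in KO and 2.14 and 2.17 times in WT. Window levels correlated between libraries with Pearson's r of 0.44 to 0.55 over the 1627 windows. All windows share the same libraries, and the cause of the correlation was not tested. The 10 X-linked receptors had a median level of 0.462 and 0.5 times that of the 1675 autosomal ones in the KO libraries and 0.54 and 0.537 times in the WT libraries.

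Only a small share of single windows passed the test between KO and WT. Of the 1683 receptor windows tested with edgeR's quasi-likelihood test, 116 were lower in KO (6.89%) and 3 higher (0.178%) at an adjusted p under 0.05, read against 4.66% lower and 3.22% higher over all 51039 windows tested. In either direction 7.07% of the receptor windows and 7.88% of all windows passed. Other genes without bulk RNA and under 4 CPM gave 6.25% lower and 0.166% higher of 18098 tested, next to 6.92% and 0.0607% for the receptors under 4 CPM, so the receptor shares lay near those of other unmarked starts. The median log2 fold change was -0.58 over the receptors, -0.15 over all windows and 0.31 over the marked windows, and 1596 of the 1683 receptors had a value below 0. Both KO libraries lay below both WT libraries at 1139 receptors (67.6%), against 37.8% of all windows, and above them at 22 (1.31%), against 26.7%. These windows share 4 libraries and are not independent.

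**Figure D2:**
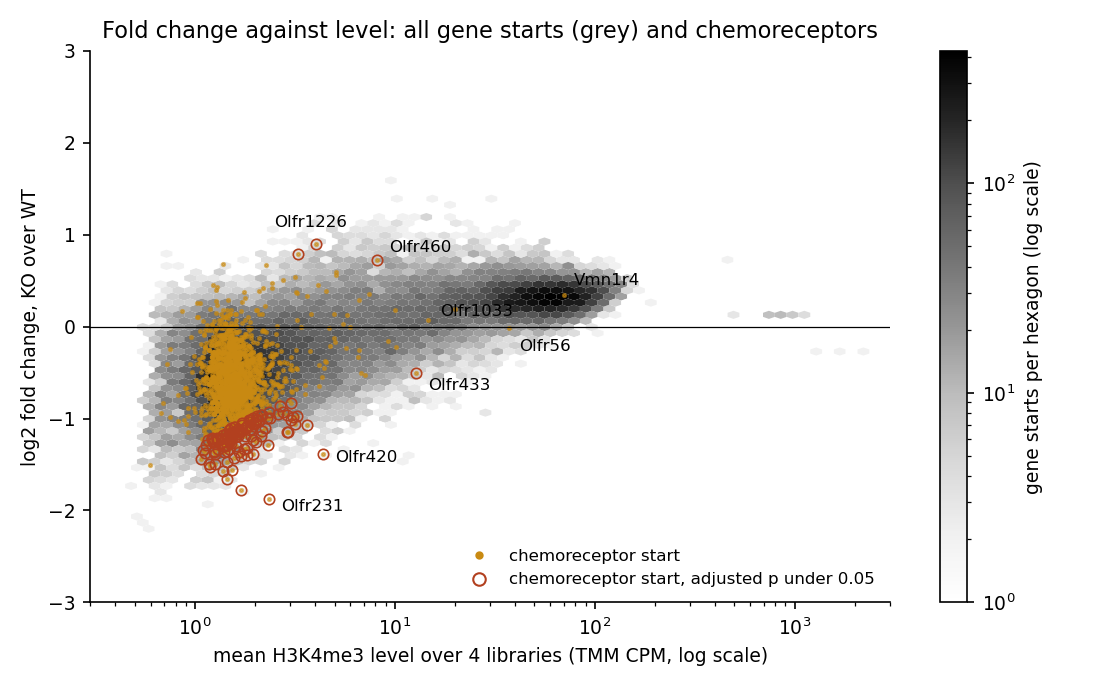
Log2 fold change of H3K4me3 (KO over WT, vertical axis) against mean level over the 4 libraries (TMM CPM, log scale) for all gene starts tested (grey hexagons, shaded by their number) and for receptor starts (yellow points), with those at an adjusted p under 0.05 circled. Receptor starts gather around 1.5 CPM below 0, while the marked starts at the right lie above 0.

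The count of single windows called rested on individual libraries and on the scaling. The 119 receptor windows called in either direction became 4 without KO replicate 1, 21 without KO replicate 2, 58 without WT replicate 1 and 5 without WT replicate 2, and 2 windows, Olfr420 and Olfr231, were called in all 4 of these fits. Scaled to the receptor windows, 21 were higher and 7 lower, and over all windows 3606 were higher and 158 lower, where TMM gave 1644 higher and 2380 lower and library size alone 1305 and 3309. DESeq2 called 1 receptor window, Olfr420, as lower in KO, gave no adjusted p for 1648 of the 1683, and had 71 at an unadjusted p under 0.05, against 587 in edgeR.

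The receptor windows with the smallest p that were lower in KO were Olfr420, Olfr231, Vmn1r137, Vmn1r226 and Olfr373. Olfr420 had 2.04 and 2.77 CPM in KO against 6.29 and 6.36 CPM in WT, a log2 fold change of -1.38 (SE 0.248, edgeR adjusted p = 8.706e-06). Olfr231 had 0.899 and 1.09 CPM in KO against 3.66 and 3.70 CPM in WT, a log2 fold change of -1.87 (SE 0.337, edgeR adjusted p = 1.013e-05). Both KO libraries were well below both WT libraries at these starts, and Olfr420 and Olfr231 kept an adjusted p under 0.05 in the 11 and 10 other settings that gave one, including each fit without 1 library. Vmn1r137 had 6 and 14 counts in KO against 36 and 38 in WT (log2 fold change -1.77, edgeR adjusted p = 0.0003977). Vmn1r226 had 8 and 10 counts in KO against 36 and 26 in WT (log2 fold change -1.66, edgeR adjusted p = 0.002618). Olfr373 had 28 and 33 counts in KO against 70 and 68 in WT (log2 fold change -1.07, edgeR adjusted p = 0.003024). Without KO replicate 1 the adjusted p of Vmn1r137 was 0.105, that of Vmn1r226 0.0864 and that of Olfr373 0.0551. Without KO replicate 2 that of Vmn1r226 was 0.0730 and that of Olfr373 0.0613, without WT replicate 1 that of Vmn1r226 was 0.0595, and without WT replicate 2 that of Olfr373 was 0.0814. Olfr373 had 6 bulk RNA counts over the 6 libraries and the other 4 genes had 0.

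Of the 3 windows higher in KO, Olfr460 had 8.01 and 12.15 CPM in KO against 6.22 and 6.06 CPM in WT (log2 fold change 0.72, SE 0.188, edgeR adjusted p = 0.00605). Olfr1226 had 5.80 and 4.66 CPM in KO against 2.49 and 3.11 CPM in WT (log2 fold change 0.90, SE 0.250, edgeR adjusted p = 0.0114). Vmn1r219 had 3.60 and 4.66 CPM in KO against 1.87 and 2.96 CPM in WT (log2 fold change 0.79, SE 0.270, edgeR adjusted p = 0.0474). The groups did not overlap at any of them, but each call rested on single libraries. The adjusted p of Olfr460 was 0.183 without KO replicate 2 and 0.0871 without WT replicate 2. That of Olfr1226 was 0.333 without KO replicate 1, 0.0970 without WT replicate 1 and 0.0631 without WT replicate 2. Vmn1r219 lay above 0.05 without any 1 of the 4 libraries, at 0.162, 0.228, 0.274 and 0.0800 without KO replicates 1 and 2 and WT replicates 1 and 2 in that order.

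Receptor starts at a mean of 4 CPM or more numbered 36 of 1685, of which 35 were Olfr and 1 Vmn1r, and 5 were pseudogenes. Their level chose them and is given as a description. With the mean over the windows of a gene, 24 were at 4 CPM or more, and with 1 library left out 32 to 40. Most sat just past the limit, with 21 of the 36 between 4 and 6 CPM, and 3 reached the 16 CPM of marked starts. Just inside it lay Olfr1226 at 4.01 CPM, and just outside it Olfr229 at 3.81, Olfr1402 at 3.75 and Olfr373 at 3.64 CPM. The limit was set on the mean over all 4 libraries, so a start can pass it through the genotype in which it is high. Olfr1226 was under 4 CPM in both WT libraries, and Olfr420 in both KO libraries. The calls between KO and WT are therefore not independent of the limit. In edgeR's test 2 of the 36 were lower in KO (Olfr433 and Olfr420) and 2 higher (Olfr460 and Olfr1226). The other 32 did not pass, the lowest adjusted p among them being 0.0686. The median log2 fold change of the 36 was -0.07, with 21 of 36 below 0, next to -0.59 over the 1649 receptors under 4 CPM. Chromosome 1, with 35 receptors, held 6 of the 36, while chromosome 7, with 446, held 8. Those on chromosome 1 were Olfr433, Olfr432, Olfr431-ps1, Olfr420, Olfr417 and Olfr414, all between positions 174041118 and 174424064. Olfr231, under 4 CPM, lay in the same stretch. This grouping was seen after the values were known and was not tested.

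**Figure D3:**
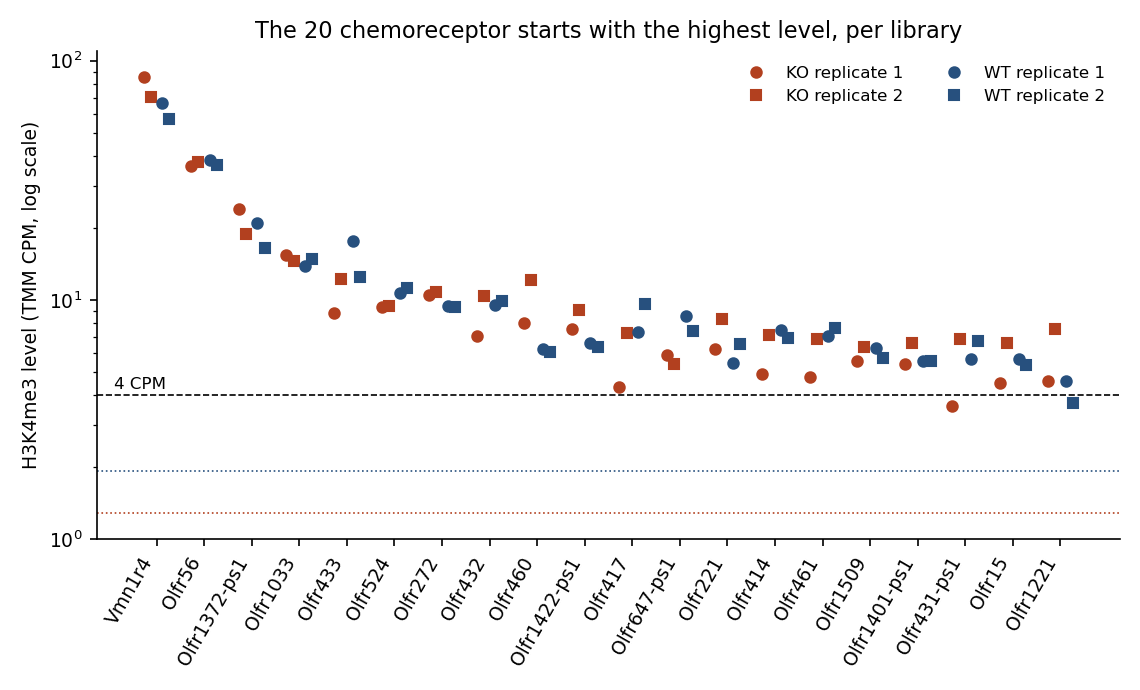
H3K4me3 level (TMM CPM, log scale) in each library at the 20 receptor starts with the highest mean, KO in red to the left and WT in blue to the right of each position. The dashed line marks 4 CPM, and the dotted lines the KO (1.28) and WT (1.92) means of the receptors under 4 CPM. Olfr460 stands higher in both KO libraries and Olfr1033 is level in all 4.

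The 2 highest levels belonged to receptor transcripts that begin beside another gene, Vmn1r4 and Olfr56. Vmn1r4 had 85.8 and 70.4 CPM in KO against 66.6 and 56.9 CPM in WT, and its window lay 83 bases from a start of Nt5c3, a pyrimidine 5'-nucleotidase gene. The highest window of Nt5c3 had 91.05 and 73.79 CPM in KO and 69.92 and 60.78 CPM in WT. The other window of Vmn1r4 lying over 3 kb away, 32.5 kb off, had 1.69 CPM. Olfr56 had 36.4 and 37.7 CPM in KO against 38.3 and 36.7 CPM in WT, 5 bases from a start of Ifi47, an interferon-inducible GTPase gene. The highest window of Ifi47 had 36.62 and 37.99 CPM in KO and 37.52 and 36.97 CPM in WT. The windows of Olfr56 lying 36.3 to 108 kb away had 28.8 to 29.9 CPM. The windows of Vmn1r4 and Nt5c3, and of Olfr56 and Ifi47, overlap nearly whole, so the same reads count for both genes. Olfr1372-ps1, a transcribed pseudogene, had 23.87 and 18.85 CPM in KO against 21.0 and 16.4 CPM in WT, and no other gene start lay within 3 kb of its window. Its window 11.9 kb away had 2.29 CPM. The log2 fold changes of these 3 were 0.34, -0.02 and 0.19, and none passed edgeR's test (adjusted p = 0.286, 0.948 and 0.398).

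Of the 3 starts at 4 CPM or more that lay over 300 kb from a marked one, Olfr1033 had the highest level and Olfr1221 and Olfr1226 were farther away. Olfr1033 had 15.45 and 14.55 CPM in KO against 13.8 and 14.8 CPM in WT, from 189 and 200 counts in KO and 200 and 200 in WT. The nearest marked start of another gene, Tnks1bp1, lay 970 kb away, no other start was within 3 kb, and its windows 14.1 to 17.9 kb away had 1.08 to 1.23 CPM. The 6 bulk libraries held 0 counts of Olfr1033. Its log2 fold change was 0.07 (SE 0.166, edgeR adjusted p = 0.763).

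Olfr524, with 9.32 and 9.46 CPM in KO against 10.7 and 11.2 CPM in WT, and Olfr272, with 10.5 and 10.8 CPM in KO against 9.40 and 9.32 CPM in WT, lay 65.7 and 92.7 kb from a marked start and had no other start within 3 kb. In both the groups did not overlap, and neither passed the test (edgeR adjusted p = 0.347 and 0.436). Olfr1221 had 4.58 and 7.57 CPM in KO against 4.56 and 3.70 CPM in WT, and lay 1463 kb from the nearest marked start, that of Ptprj, as did Olfr1226 at 1387 kb. Olfr1509 had 5.56 and 6.33 CPM in KO against 6.29 and 5.69 CPM in WT, and Olfr15 had 4.50 and 6.62 CPM in KO against 5.67 and 5.32 CPM in WT, with overlapping groups in both. Of the 36 genes, 22 had another window over 3 kb from the highest one, and in 17 of the 22 all such windows were under 4 CPM, the median of their highest level being 2.87 CPM.

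Starts above 4 CPM lay nearer to marked starts of other genes than the rest did. Within 100 kb of one lay 28 of the 36 (77.8%), against 311 of the 1649 others (18.9%), and the median distance was 43.3 kb against 321 kb. Over all 1685 starts, level and distance correlated with Spearman's rho of -0.496. The median level was 2.65 CPM at 3 to 10 kb (14 starts), 2.26 CPM at 10 to 30 kb (55 starts), 1.84 CPM at 30 to 100 kb (268 starts), 1.57 CPM at 100 to 300 kb (485 starts), 1.48 CPM at 300 to 1000 kb (597 starts) and 1.36 CPM beyond (264 starts). The median log2 fold change went with it only slightly, from -0.43 in the nearest of these classes to -0.60 in the farthest.

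**Figure D4:**
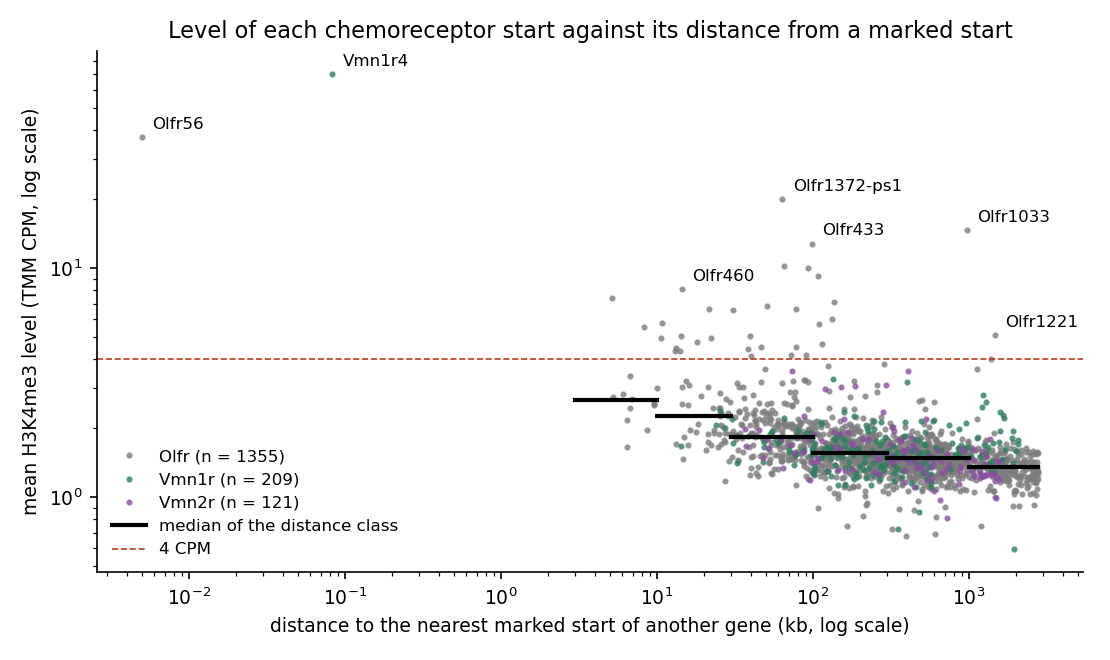
Mean H3K4me3 level of each receptor start (TMM CPM, log scale) against its distance from the nearest start of another gene at 16 CPM or more (kb, log scale), coloured by family. Black bars are the medians of the distance classes, and the dashed line is 4 CPM. Medians run from 2.65 CPM at 3 to 10 kb to 1.36 CPM beyond 1000 kb, and Olfr1033 is the highest point beyond 300 kb.

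A cluster of olfactory receptor genes surrounds the beta-globin genes on chromosome 7 and was taken at Hbb-bt after the values were seen. Of the 34 receptors within 250 kb, 1 was at 4 CPM or more, Olfr67 with a mean of 4.72 CPM in KO and 5.20 CPM in WT, and 4 were lower in KO in edgeR's test: Olfr629, Olfr69, Olfr68 and Olfr633, none of which was called in all 4 fits without 1 library. Over all windows 4.66% were lower, and over all receptors 6.89%, and since the locus was picked after its values were seen, nothing is read from its count. Olfr68 had 1.96 and 2.04 CPM in KO against 4.15 and 3.99 CPM in WT (log2 fold change -1.02, edgeR adjusted p = 0.0112). The median level of the 34 was 1.95 CPM and their median log2 fold change -0.70. The Hbb-bt window did not pass the test (27.46 and 25.25 CPM in KO, 28.47 and 27.06 CPM in WT, edgeR adjusted p = 0.746). Hbb-bt RNA had 102.7, 91.35 and 90.95 CPM in KO bulk libraries, against 114.1, 126.3 and 74.79 CPM in WT, so the groups overlapped (edgeR adjusted p = 0.492). The part of erythroid cells in these windows was not tested.

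**Figure D5:**
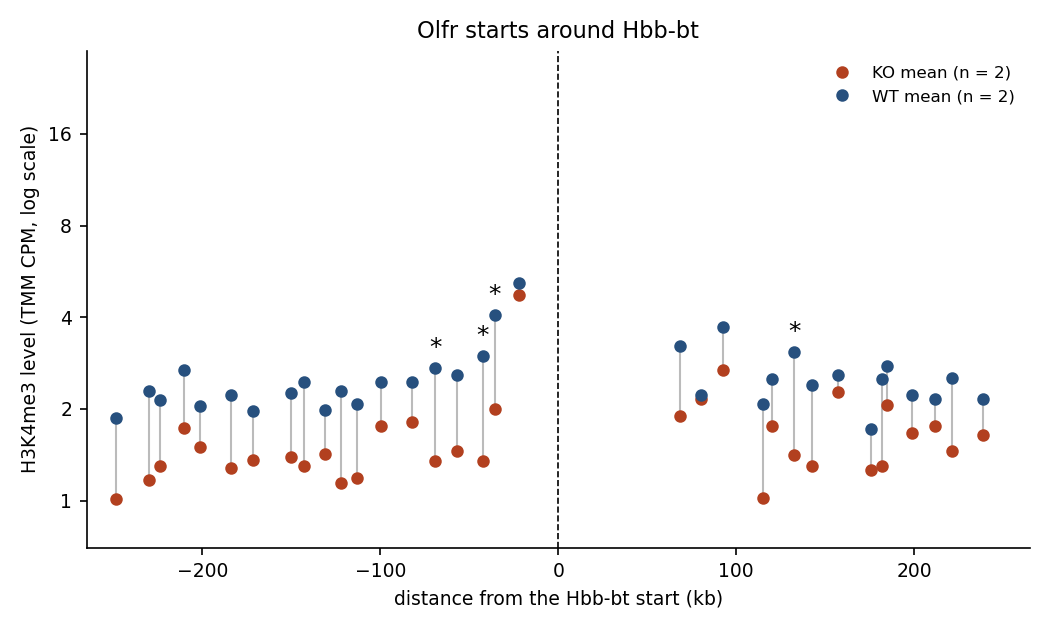
Mean H3K4me3 level of KO (red) and WT (blue) libraries (TMM CPM, log scale, n = 2 each) at receptor starts within 250 kb of Hbb-bt, by distance from its start. Stars mark the 4 starts at an adjusted p under 0.05, all lower in KO.

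Olfr460 and Olfr461 lie on the same side of the start of Clec5a, a myeloid receptor gene on chromosome 6. Clec5a rose in KO at its own start, to 48.39 and 51.67 CPM in KO against 26.19 and 22.33 CPM in WT (log2 fold change 1.04, edgeR adjusted p = 9.833e-06), and in bulk RNA, to 43.7 ± 1.83 CPM in KO against 8.36 ± 2.31 CPM in WT (SD, n = 3 each, log2 fold change 2.37, edgeR adjusted p = 2.775e-05). Olfr460, 14.4 kb from Clec5a, was higher in KO as described, whereas Olfr461, 30.8 kb from it, had 4.74 and 6.84 CPM in KO against 7.05 and 7.62 CPM in WT (log2 fold change -0.33, edgeR adjusted p = 0.249). Neither receptor had a bulk RNA count.

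Bulk RNA of the receptor genes was near nil. Of the 1685 genes, 1608 had 0 counts in all 6 libraries, 62 had 1 to 9 counts in all and 15 had 10 or more. The summed counts of all receptors were 211, 132 and 192 in KO and 258, 279 and 118 in WT, in libraries of 20088100 to 40641081 counts. A bulk count was found for 11 of the 36 genes at 4 CPM or more of H3K4me3 (30.6%) and for 66 of the 1649 others (4.0%). In bulk samples, fewer expressing cells and less RNA per cell cannot be told apart.

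Only Olfr56 and Olfr433 passed the filter on low counts. Olfr433 had 23, 13 and 25 counts in KO against 75, 67 and 25 in WT, or 0.615 ± 0.151 CPM in KO and 1.80 ± 0.560 CPM in WT (SD, n = 3 each). Its log2 fold change was -1.55 (SE 0.320, edgeR adjusted p = 0.00411). Of all 14405 genes tested, 44.2% were called, 22.6% as lower and 21.6% as higher in KO. It kept that call in all settings tried, the adjusted p ranging up to 0.0291 without KO replicate 2. At its H3K4me3 window, 8.83 and 12.2 CPM in KO stood against 17.5 and 12.4 CPM in WT, and its call there (log2 fold change -0.51, SE 0.169, edgeR adjusted p = 0.0405) was lost in 7 of 11 settings, with 0.428 without KO replicate 1 and 0.425 without WT replicate 1. Olfr56 had 117, 77 and 94 counts in KO against 80, 93 and 43 in WT, 2.92 ± 0.0401 CPM in KO and 2.38 ± 0.220 CPM in WT (log2 fold change 0.29, edgeR adjusted p = 0.211). Ifi47, whose start it shares, rose to 78.7 ± 17.9 CPM in KO against 40.2 ± 5.34 CPM in WT (log2 fold change 0.97, edgeR adjusted p = 0.00158). Whether reads were counted by strand is not given in the sources used here, so reads of Olfr56 and its overlapping neighbours may not be separated.

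Below the filter, Olfr632 had 1, 1 and 1 counts in KO against 10, 11 and 7 in WT and Vmn2r26 had 2, 1 and 5 counts in KO against 11, 16 and 2 in WT. Tested without the filter, Olfr632 gave an edgeR adjusted p of 0.00456. Olfr1423 had 4, 6 and 7 counts in KO against 3, 1 and 0 in WT, and Olfr414 had 6, 4 and 3 counts in KO against 1, 1 and 0 in WT. Without the filter the edgeR adjusted p was 0.0835 for Vmn2r26, 0.172 for Olfr1423 and 0.140 for Olfr414, and none of these 3 passed.

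In the single-cell libraries of the same fraction (15707 cells, 2 KO and 2 WT libraries), 7 receptor genes were listed. A gene with a count in a library had at least 10 cells with one there, in all 4 libraries and over all genes listed, so a gene at 0 in a library is only listed at 0. Olfr433 had a count in 12 cells of KO replicate 1 and was listed at 0 in KO replicate 2, against 18 and 28 cells in WT. Olfr1423 had a count in 14 and 11 KO cells and was listed at 0 in both WT libraries. Olfr56 had one in 16 cells of KO replicate 2 and was listed at 0 elsewhere.

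The signalling and chromatin genes that receptor neurons use were described from a list of 28. Of their starts, 11 were at 16 CPM or more and 7 under 4 CPM. In H3K4me3, where 3.22% of all windows were higher and 4.66% lower, 2 of the 27 tested were higher in KO, Cngb1 (log2 fold change 0.66, edgeR adjusted p = 0.0112), a subunit of the olfactory cyclic nucleotide-gated channel, and Gng8 (0.47, adjusted p = 0.0486), a G protein gamma subunit. Another 2 were lower, Ano2 (-1.25, edgeR adjusted p = 0.00549), the olfactory calcium-activated chloride channel, and Slc24a4 (-0.61, adjusted p = 0.0350), a sodium/calcium exchanger. In bulk RNA 10 of the 28 were tested, 6 fell and none rose, where 22.6% of all genes tested fell and 21.6% rose, and 5 had 0 counts in all libraries. Those that fell were Gnal, Adcy3, Omp, Reep1, Gnai2 and Ebf1. Ebf1, a transcription factor of olfactory neurons and of B cells, fell to 8.33 ± 0.543 CPM in KO against 26.6 ± 8.77 CPM in WT (SD, n = 3 each, log2 fold change -1.69). Omp, the olfactory marker protein, had 0.277 ± 0.0520 CPM in KO and 0.729 ± 0.118 CPM in WT (log2 fold change -1.38, edgeR adjusted p = 0.00852). The median log2 fold change of the list was -0.39 in bulk RNA, next to -0.02 over all genes tested, and -0.05 in H3K4me3.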

How the data were processed

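H3K4me3 CUT&RUN, bulk RNA-seq, J2-RIP RNA-seq and single-cell RNA-seq were deposited for 22 samples. The deposited values are raw counts, per the series' design text and the labels: reads per window of 3 kb at each annotated transcript start for H3K4me3 (130983 windows of 52453 genes), reads per gene for bulk and J2 RNA, and counts per gene and cell for single cells. How far a window extends on each side of the start, the counter, and the strand setting are not given in the sources used here. The submitters' processing notes name Bowtie2 2.2.9, STAR 2.5.3a, Picard 2.9.0, bedtools, edgeR and Seurat 3.0 without roles, and the build GRCm38.p5.

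Gene names came from the bulk table. For each gene the window with the highest mean count over the 4 libraries was kept. KO was tested against WT with edgeR 4.0.16 (R 4.3.3): filterByExpr with a minimum count of 10, TMM scaling and the quasi-likelihood F test, with genotype alone in the model and Benjamini-Hochberg adjustment over all windows or genes tested and calls at an adjusted p under 0.05. The fit was checked on simulated counts. CPM are TMM-scaled and computed from the deposited counts over 1 window per gene. Levels per library were compared with an exact two-sided permutation test. Windows in the receptor families under 4 CPM were taken as unmarked, and windows of other genes at 16 CPM or more as marked. Alternatives were other scalings, DESeq2 1.42.0, no filter, the mean window of a gene, a replicate block and leaving out each library.

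Named genes were up to 20 starts at 4 CPM or more, the 3 just below, genes passing the bulk filter, up to 5 called windows in each direction by p, and their neighbours. Olfr68 and Olfr461 and the genes of the loci around Hbb-bt and Clec5a, and bulk genes below the filter, were named after their values were seen. The members and lists were chosen with earlier results of these data known. Sequences at annotated starts are from RefSeq (GRCm38.p6), matched by symbol for 1232 of the 1685 receptors. Replicate numbers were not taken as pairs: with 2 pairs in H3K4me3 the deviations of same-numbered libraries correlated at 0.302, and with 3 in bulk RNA at 0.230, 0.0957 and 0.0442.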

Additional observations from a re-analysis of the deposited data

Results flagged for a closer look

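The J2 libraries hold RNA pulled down from whole fetal liver with the J2 antibody against double-stranded RNA, beside an INPUT library of the same tissue, and no comparison above uses them. Summed over all 1685 receptor genes, J2 CPM averaged 43.3 in KO and 31.7 in WT, with 43.61 and 43.06 in the KO libraries against 29.62 and 33.82 in the WT libraries, and the INPUT libraries held 12.38 and 17.31 in KO against 10.64 and 10.38 in WT. Receptor genes with 30 or more J2 counts over the 4 libraries numbered 7. A limit on the total lets a gene pass through the genotype in which it is high, as Olfr111, Olfr920 and Olfr56 did, so how many of the 7 were higher in KO is not read as a result. Of all 14324 genes at that limit, 46.5% had higher counts in both KO J2 libraries than in both WT J2 libraries. That share and the gene counts below are raw and not scaled for library depth. Summed over the receptors, raw J2 counts were 229 and 203 in KO and 119 and 131 in WT, a wider difference than in CPM. Olfr1033, whose start had a mean of 14.65 CPM of H3K4me3, had 59 J2 counts in KO (31 and 28) and 14 in WT (8 and 6), with 0 in all INPUT and bulk libraries. Olfr111 had 31 J2 counts in KO (16 and 15) and 3 in WT (3 and 0). Olfr920 had 30 in KO (19 and 11) and 3 in WT (3 and 0), and Olfr56 had 30 in KO (12 and 18) and 2 in WT (2 and 0). Olfr68 had 28 in KO (15 and 13) and 7 in WT (3 and 4). Of the remaining 2, Olfr1372-ps1 had 64 and 26 in KO against 28 and 23 in WT, and Olfr632 had 0 and 2 in KO against 5 and 27 in WT. These differences were not tested.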

How the results depend on the processing

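Scaling to the receptor windows fixes their level by construction and is left out of this comparison. In all settings for which a level was computed, the receptor background was lower in KO, for the whole set and for each family. Its log2 difference moved by more than 1 SD with library size alone, to -0.77 for the whole set, -0.77 for Olfr and -0.67 for Vmn1r, and for Vmn1r also to -0.58 both under 4 CPM and without a marked start within 10 kb, which leaves out Vmn1r4.

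The number of receptor windows called, 119, was 28 when scaled to the receptor windows (21 higher and 7 lower), 1 with DESeq2, 558 with the replicate block (7 higher and 551 lower), and 4 to 58 with 1 library left out. Over all windows the 4024 calls became 826 with DESeq2, 20842 with the replicate block, and 1080 to 3858 with 1 library left out. The replicate numbers share only a number, with 2 pairs in H3K4me3, so the block result is a hint from the data and not from the design. In bulk RNA, 1 receptor gene was called, 2 without the filter on low counts (Olfr433 and Olfr632), and 2 to 3 with 1 library left out, where Olfr632 and, in 2 of the 6 fits, Vmn2r26 were added because they then entered the test; the replicate block left the count at 1. Of the windows named, Olfr433 lost its call in 7 of 11 settings, Olfr373 and Vmn1r219 in 5 of 10, Olfr1226 in 4 of 10, Olfr460 in 4 of 11, Vmn1r226 in 3 of 10 and Vmn1r137 in 1 of 10. Apart from the construction of the scalings and the smaller number of samples, the cause was not tested. With a mean of 15.79 to 29.99 counts per receptor window and 2 libraries a group, single windows can only show large differences.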

Other observations

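Other families of tissue-restricted genes had H3K4me3 levels near those of the receptors. Krtap genes (keratin-associated proteins of hair) averaged 0.997 and 1.27 CPM in KO and 1.55 and 1.80 CPM in WT over 57 starts, with 5 lower and 0 higher in KO in edgeR's test. Defb genes (beta-defensins) averaged 1.41 and 1.65 CPM in KO and 1.96 and 2.12 CPM in WT over 43 starts, with 1 lower and 0 higher. Taar genes, the trace amine-associated receptors of the olfactory epithelium, averaged 1.13 and 1.76 CPM in KO and 2.47 and 2.88 CPM in WT over 16 starts, with 5 lower and 0 higher, where 4.66% of all windows were lower. Tas1r and Tas2r genes, the taste receptors, averaged 2.43 and 2.77 CPM in KO and 2.74 and 2.92 CPM in WT over 43 starts, and Mrgpr genes 2.12 and 2.61 CPM in KO and 2.49 and 2.53 CPM in WT over 33 starts, and in both families these means overlapped between the groups. Their medians did not, at 1.14 and 1.38 CPM in KO against 1.66 and 1.77 CPM in WT for Tas1r and Tas2r and 1.06 and 1.60 CPM in KO against 1.87 and 2.07 CPM in WT for Mrgpr, and 3 Tas and 4 Mrgpr windows lay at 4 CPM or more. In edgeR's test 2 Tas windows were lower and 0 higher in KO, while 1 Mrgpr window was lower and 2 were higher. The share lower was 8.77% for Krtap, 2.33% for Defb, 31.25% for Taar, 4.65% for Tas and 3.03% for Mrgpr. The share higher was 6.06% for Mrgpr, against 3.22% of all windows.

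By chromosome, the median log2 fold change of the receptors lay between -0.50 and -0.63 on the 11 chromosomes with 44 or more of them, from -0.50 on chromosome 14 (44 receptors) to -0.63 on chromosome 6 (96 receptors). The median level of these chromosomes ran from 1.41 CPM on chromosome 2 (344 receptors) to 1.83 CPM on chromosome 11 (104 receptors). Windows of the Y-linked genes Kdm5d, Uty, Ddx3y and Eif2s3y had more than 16 CPM in all 4 libraries.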
